A study of Mus musculus with 24 samples.

Results

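Overt leukaemia in BCR/ABLp190 transgenic mice with both Pax5 copies was compared with the preleukaemic B cell precursors of mice of the same genotype. The leukaemia group held 2 arrays of bone marrow cells, from marrow that the series describes as tumour-bearing, and both such arrays in the series were used. The precursor group held 3 arrays of pro-B and pre-B cells, so that the comparison rests on 5 of 24 arrays. Members were chosen by their titles alone, and each array is labelled as a separate biological replicate. All 5 mice carried the Sca1-BCR/ABLp190 transgene, named for a promoter of stem and progenitor cells, and none carried the Pax5+/- allele. The mice lived in a conventional facility and had met common pathogens, and no treatment was given. Ages are not stated, no sort is named for the leukaemic marrow, and the stage and the kind of sample therefore change together. The other 19 arrays were 7 leukaemic marrows and 3 precursor samples of Sca1-BCR/ABLp190+Pax5+/- mice, 4 wild-type precursor samples and 5 of wild-type B220+ marrow B cells. RNA from each sample was hybridised to an Affymetrix mouse gene array, and 19938 genes were followed by the probe set with the highest mean over the 24 arrays.

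The fusion kinase BCR/ABL signals without its normal controls and drives B cell acute lymphoblastic leukaemia, which arises from cells held at the pro-B or pre-B stage. At that stage PAX5, EBF1 and their partners switch on the genes of the pre-B cell receptor and of antigen receptor gene recombination and keep genes of other lineages off. Both PAX5 and IKZF1 are described as brakes on glucose uptake in these cells, and the title of the series places Pax5 in a metabolic shift.

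The 3 precursor arrays resembled each other more than the 2 leukaemias did. Correlations over all 35556 probe sets were 0.9801 to 0.9856 among the precursors and 0.9474 between the leukaemias. Over the 19938 genes the root mean square difference was 0.255 to 0.378 against 0.72 on the log2 scale. Levels of Y-linked genes and Xist placed leukaemia 1 and the 3 precursor samples with male mice and leukaemia 2 with females. Precursor samples held high levels of the genes that define early B cells (Cd79a 13.02, 13.08 and 13.39, Rag1 11.60, 11.41 and 11.87, Igll1 12.99, 13.19 and 13.13). Fcer2a, a gene of more mature B cells, was low at 6.22, 6.05 and 6.14. Genes of maturing B cells were not low as a group: their list averaged 8.89, 9.20 and 9.20 in the precursors, against 7.35, 7.31 and 7.29 for all genes. Of 10 B lineage markers measured, 8 were lower in the leukaemic marrow and none was higher, with a median change of -3.11. The leukaemic marrow also carried more RNA of other lineages than the precursors: the medians of the marker lists were 2.78 and 1.34 above the precursor mean in leukaemia 1 and 2 for monocytes and macrophages, 3.32 and 1.73 for megakaryocytes, and 2.44 and 1.46 for stroma and endothelium. Erythroid markers stood apart in leukaemia 1 alone, at 3.83 against -0.26 in leukaemia 2. In bulk RNA, fewer cells of a type and less RNA per cell cannot be told apart, and the part of these other cells in the changes below was not tested.

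At an adjusted p below 0.05 (limma with Benjamini-Hochberg adjustment over all genes), 9120 of 19938 genes (45.7%) differed between leukaemia and precursors. Of these, 3612 were higher in leukaemia (18.1% of all genes) and 5508 lower (27.6%), and the median change of all genes was -0.08. The leukaemia arrays lay above every precursor for 4543 genes (22.8%) and below for 7734 (38.8%), whether called or not. Larger changes leaned the other way, since 1584 of the genes called rose and 538 fell by at least 1 on the log2 scale. The split by direction depended on the scaling and on dim genes. As reported 39.6% of the genes called were higher, against 51.8% of 7010 after cyclic loess and 31.9% of 9761 after median centring. With dim genes left out, those below the median of all values in both groups, 62.5% of 5276 were higher. The median change was then 0.17. The number rests on a spread shared by all 24 arrays: with the 5 arrays alone 2700 genes were called, 2602 of them called in the same direction as before. With a spread of its own for each group 2922 were called, and all 2922 had been called in that direction before. Because the 2 leukaemias vary more than the sorted cells, calls of single genes that were lost with the group spread are named below. Each change is given on the log2 scale as leukaemia minus precursors ± its standard error (n = 2 and 3 arrays), and the adjusted p comes from the same limma fit.

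Transcription factors of early B cell development fell as a group. Of 24 measured, 17 were lower in leukaemia and none was higher, with a median of -1.59. Pax5, which commits cells to the B lineage, read 8.10 and 8.39 in the leukaemias and 11.93, 12.03 and 12.19 in the precursors, a change of -3.81 ± 0.67 (adjusted p = 0.000251). Ebf1, which acts with it, read 9.16 and 9.26 against 12.67, 12.53 and 12.62 (-3.39 ± 0.57, adjusted p = 0.00017). Both leukaemias lay more than 3 log2 units below every precursor array for these genes, and the 2 leukaemias differed little from each other. Foxo1, which drives recombination gene expression, read 7.73 and 8.23 against 11.13, 11.07 and 11.25 and changed by -3.17 ± 0.31 (adjusted p = 7.82e-07). Ikzf3, an Ikaros family factor of pre-B cells, read 8.54 and 7.33 against 11.84, 11.88 and 11.91 (-3.94 ± 0.33, adjusted p = 1.42e-07), and Irf4, which promotes light chain rearrangement, read 7.62 and 7.35 against 11.51, 11.56 and 11.76 (-4.13 ± 0.42, adjusted p = 1.15e-06). Bach2, a factor of the pre-B checkpoint, fell by 4.35 ± 0.42, with leukaemia 1 at 6.90 and leukaemia 2 at 9.28. In contrast, Ikzf1, which encodes Ikaros, stayed close to the precursors in leukaemia 2: it read 10.65 and 11.55 against 11.67, 11.78 and 11.71, a change of -0.62 ± 0.20 (adjusted p = 0.0188) that was lost without leukaemia 1 (adjusted p = 0.522) and with the group spread (adjusted p = 0.0922). Tcf4, an E protein, read 9.07 and 11.39 against 10.84, 11.13 and 10.64 and did not pass the test (adjusted p = 0.192), with leukaemia 1 below and leukaemia 2 above all precursors, and passed as lower without leukaemia 2 (adjusted p = 8.02e-05).

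Genes that PAX5 is known to activate fell, with 12 of 16 lower, none higher and a median of -3.47. This list shares Ebf1, Ikzf3, Irf4, Bach2 and others with the factors above, so the counts are not independent. The 4 members that did not pass included Cr2 and Fcer2a, surface genes of mature B cells that were already low in the precursors. Of 15 genes that PAX5 is known to repress, 9 rose and 1 fell, with a median of 1.37, and with the group spread the counts were 4 and 0. Emb, the adhesion protein embigin, read 11.54 and 11.93 in the leukaemias and 8.67, 6.53 and 6.11 in the precursors (4.63 ± 0.57, adjusted p = 8.33e-06). Csf1r, the receptor for macrophage colony-stimulating factor, read 8.68 and 9.06 against 7.38, 6.45 and 6.58 (2.06 ± 0.53, adjusted p = 0.0044), and Lmo2, a progenitor factor, read 11.63 and 10.82 against 9.37, 8.54 and 8.20 (2.52 ± 0.40, adjusted p = 0.000109). Csf1r and other members of this list are also expressed by myeloid cells, whose markers rose in both leukaemias. Jchain, the joining chain of secreted immunoglobulin, read 11.71 and 9.89 against 8.13, 6.40 and 6.77 (3.70 ± 0.73, adjusted p = 0.000645), a call lost with the group spread (adjusted p = 0.0582). Camk2d, a calcium-dependent kinase, was the member that fell (-0.92 ± 0.32, adjusted p = 0.0246), and its call was lost without leukaemia 2 (adjusted p = 0.202), precursor 2 (adjusted p = 0.0547) or precursor 3 (adjusted p = 0.0576) and with the group spread (adjusted p = 0.118).

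**Figure D1:**
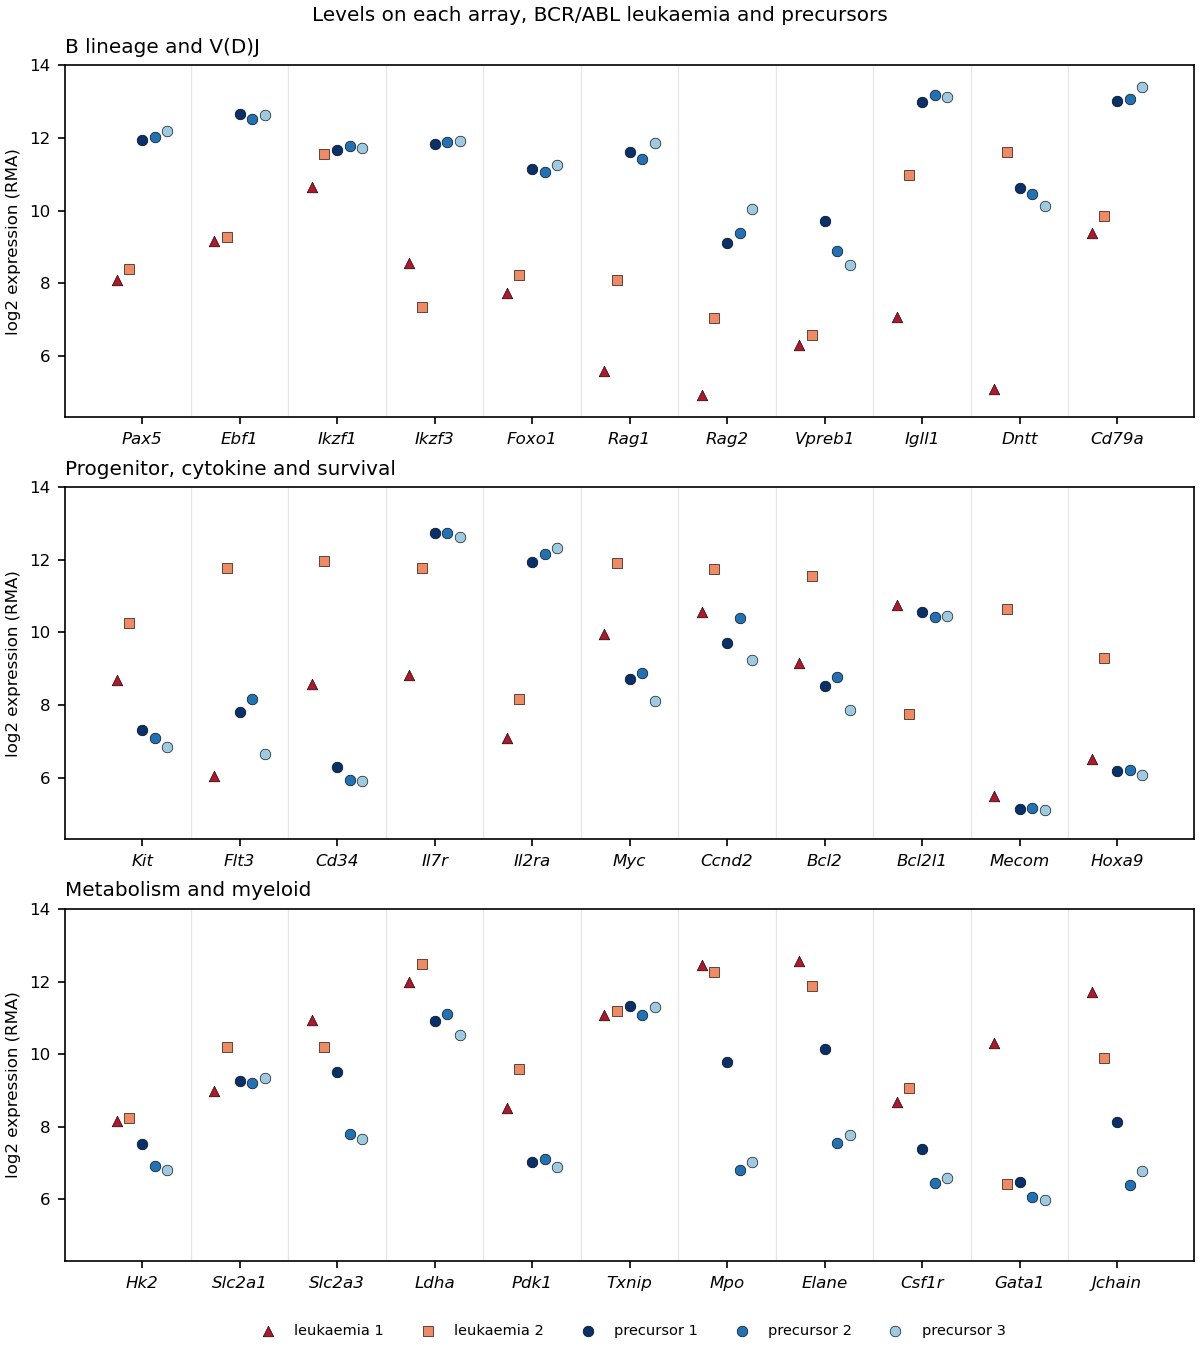
Expression of 33 genes on each of the 5 arrays (vertical axis: deposited RMA log2 expression; triangle and square: leukaemia 1 and 2; circles: precursors 1 to 3). Pax5 and Ebf1 are low in both leukaemias, Dntt and Flt3 separate leukaemia 1 from leukaemia 2, and Mpo and Elane are higher in precursor 1 than in precursors 2 and 3.

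Surrogate light chain and V(D)J recombination genes, which build and then test the pre-B cell receptor, fell with them. Of 14 measured, 9 were lower and 1 higher, with a median of -2.32, and the medians of the single leukaemias were -3.10 and -1.58. The promoters of the 2 surrogate light chain genes Igll1 and Vpreb1 are shown because E proteins and EBF1 are known to drive them. Sequences are from RefSeq (GRCm38.p6), end 1 base before the start site and read 5′ to 3′ on the gene's strand. Capitals mark the E box CAGGTG on either strand, which also stands in 17.1% of 27025 promoter windows of 250 bases and in 4 of 13 promoters found for this list.
Igll1 (chr16:16863986-16864235, minus strand): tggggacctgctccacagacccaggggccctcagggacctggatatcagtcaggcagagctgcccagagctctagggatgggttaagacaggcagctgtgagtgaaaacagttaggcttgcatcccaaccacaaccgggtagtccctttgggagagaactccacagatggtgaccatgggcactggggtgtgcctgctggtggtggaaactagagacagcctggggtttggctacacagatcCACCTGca
Vpreb1 (chr16:16869256-16869505, minus strand): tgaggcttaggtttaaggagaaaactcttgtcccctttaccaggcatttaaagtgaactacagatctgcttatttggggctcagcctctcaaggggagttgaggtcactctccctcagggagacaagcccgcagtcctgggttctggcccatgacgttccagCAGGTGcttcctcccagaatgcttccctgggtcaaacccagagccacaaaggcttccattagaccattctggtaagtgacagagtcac
A match describes the letters and says nothing about binding. Igll1, the lambda5 part of the surrogate light chain, read 7.07 and 10.99 in the leukaemias and 12.99, 13.19 and 13.13 in the precursors (-4.07 ± 1.12, adjusted p = 0.00664), far lower in leukaemia 1, and the call was lost without leukaemia 1 (adjusted p = 0.191). Vpreb1, its partner, read 6.30 and 6.58 against 9.72, 8.88 and 8.51 (-2.59 ± 0.52, adjusted p = 0.000733), with both leukaemias below all precursors. Vpreb3, a chaperone-like relative, fell by 5.67 ± 1.05 (adjusted p = 0.000378).

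Rag1, whose product cuts receptor genes together with RAG2, read 5.58 and 8.08 in the leukaemias and 11.60, 11.41 and 11.87 in the precursors, a change of -4.80 ± 0.93 (adjusted p = 0.000539). Rag2 read 4.92 and 7.04 against 9.12, 9.37 and 10.05 (-3.53 ± 0.70, adjusted p = 0.000626). Leukaemia 1 was the lower of the 2 for both genes, and no leukaemia array overlapped a precursor array. Polm and Lig4, a polymerase and the ligase that close the cut ends, changed by -3.84 ± 0.23 (adjusted p = 1.64e-09) and -3.10 ± 0.49 (adjusted p = 0.000106). Prkdc, the DNA-dependent protein kinase used by every cell that repairs double-strand breaks, was the member that rose (0.97 ± 0.28, adjusted p = 0.00857), a call lost with the group spread (adjusted p = 0.117). Dntt, the terminal transferase of pro-B cells, read 5.08 and 11.62 in leukaemia 1 and 2 and 10.61, 10.47 and 10.13 in the precursors. It did not pass the test (-2.05 ± 1.41, adjusted p = 0.239), as leukaemia 1 was about 5 log2 units below every precursor and leukaemia 2 about 1 above. Without leukaemia 2 its change was -5.32 (adjusted p = 0.00494).

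Antigen receptor signalling genes were lower in 10 of 17 cases and higher in 1, with a median of -1.02. Cd79a, a signalling chain of the receptor, read 9.39 and 9.84 in the leukaemias and 13.02, 13.08 and 13.39 in the precursors (-3.55 ± 0.58, adjusted p = 0.000143), and Cd79b, its partner, changed by -2.57 ± 0.27 (adjusted p = 1.57e-06). Syk, the kinase that the receptor recruits, read 9.69 and 10.30 against 12.10, 11.91 and 12.08 (-2.03 ± 0.17, adjusted p = 1.39e-07). Pik3ap1, an adaptor to PI3 kinase, changed by -1.91 ± 0.22 (adjusted p = 4.7e-06). For each of these genes both leukaemias were below all precursors. Bank1, a scaffold of B cells, was the member that rose (0.97 ± 0.34, adjusted p = 0.0244), a call lost without leukaemia 1 (adjusted p = 0.0716), leukaemia 2 (adjusted p = 0.103), precursor 1 (adjusted p = 0.0715) or precursor 2 (adjusted p = 0.0588) and with the group spread (adjusted p = 0.149).

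NF-kB and immediate early genes were lower too, though signalling itself was not measured. Of 11 NF-kB subunits and feedback targets 8 fell and none rose (median -1.42), and of 15 immediate early genes 7 fell and none rose (median -0.93). Tnfaip3, an inhibitor of NF-kB signalling, read 7.11 and 7.69 in the leukaemias and 9.71, 9.96 and 9.67 in the precursors (-2.38 ± 0.29, adjusted p = 6.51e-06), and Nfkbia, the inhibitor IκBα, read 9.78 and 9.90 against 11.52, 11.69 and 11.68 (-1.79 ± 0.26, adjusted p = 3.8e-05). Jun, a subunit of the AP-1 factor, read 8.10 and 8.37 against 11.40, 11.62 and 11.38 (-3.23 ± 0.25, adjusted p = 6.28e-08). Zfp36, which destabilises short-lived mRNAs, changed by -2.36 ± 0.25 (adjusted p = 1.6e-06), and Jund, a relative of Jun, by -2.17 ± 0.24 (adjusted p = 3.1e-06). Cell handling is known to move immediate early genes, and its part was not tested here. Of 19 surface and antigen presentation genes of maturing B cells 6 fell and none rose (median -0.78), a share of falls near the 27.6% of all genes. They included Tnfrsf13c, the BAFF receptor (7.99 and 8.66 against 11.25, 11.53 and 11.23, -3.01 ± 0.40, adjusted p = 1.58e-05), the tetraspanin Cd37 (-1.73 ± 0.19, adjusted p = 2.08e-06) and Fcmr, the IgM Fc receptor (-2.19 ± 0.54, adjusted p = 0.00315).

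Surface antigens of progenitors and early B cells moved in both directions, 4 of 13 up and 5 down, and with the group spread 2 and 3, as also without precursor 3. The number of falls was 2 without leukaemia 1 and 3 without precursor 1, and the number of rises was 2 without leukaemia 2. Kit, the receptor for stem cell factor, read 8.70 and 10.25 in the leukaemias and 7.30, 7.09 and 6.84 in the precursors (2.40 ± 0.55, adjusted p = 0.002), above every precursor in both, though the call was lost without leukaemia 2 (adjusted p = 0.0564). Cd34, a progenitor antigen, read 8.58 and 11.96 against 6.29, 5.93 and 5.91 (4.22 ± 0.65, adjusted p = 7.4e-05), again highest in leukaemia 2 and lost with the 5 arrays alone (adjusted p = 0.0587). Il2ra, the CD25 antigen of pre-B cells, read 7.08 and 8.18 against 11.95, 12.16 and 12.31 (-4.51 ± 0.50, adjusted p = 2.45e-06), low in both leukaemias. Il7r, the receptor for the growth factor of mouse pro-B cells, read 8.82 and 11.78 against 12.75, 12.72 and 12.63 (-2.40 ± 0.55, adjusted p = 0.00203), a fall carried by leukaemia 1, without which the call was lost (adjusted p = 0.119). Bst1, the CD157 antigen of early B cells, changed by -2.39 ± 0.60 (adjusted p = 0.00398), a call lost without leukaemia 2 (adjusted p = 0.0806). Flt3, a receptor of early progenitors and of some leukaemias, read 6.05 and 11.77 against 7.80, 8.17 and 6.65 and did not pass the test (1.37 ± 0.99, adjusted p = 0.264). Leukaemia 1 was below and leukaemia 2 more than 3 log2 units above the precursors, and without leukaemia 1 the change was 4.23 (adjusted p = 0.000294).

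The 2 leukaemias thus differed between themselves in some genes of early stages, such as Dntt and Flt3, and little in others, such as Pax5, Ebf1 and Vpreb1. With 1 array each and no sort named, a difference of stage and one of cell mixture cannot be told apart. Over all genes, 15479 of 19938 lay on the same side of the precursor mean in both, while 528 were more than 2 log2 units apart, 342 of them higher in leukaemia 1 and 186 higher in leukaemia 2. Of the 528, 240 were among the genes called, a share near the 45.7% called among all genes. Stem cell and leukaemia associated regulators rose in 7 of 14 cases and fell in 2, with a median of 0.24 in leukaemia 1 and 1.51 in leukaemia 2. Mecom, which encodes the transcription factor EVI1, read 5.48 and 10.64 in leukaemia 1 and 2 and 5.14, 5.15 and 5.11 in the precursors. Leukaemia 1 was close to the precursors, and leukaemia 2 was more than 5 log2 units above them. The homeobox gene Hoxa9 read 6.52 and 9.30 against 6.18, 6.20 and 6.07, and Hoxa5, its neighbour in the cluster, read 6.24 and 7.48 against 5.79, 5.99 and 5.63 (1.05 ± 0.23, adjusted p = 0.00129), a call lost without leukaemia 2 (adjusted p = 0.068). Mycn, a relative of Myc, read 6.75 and 10.06 against 7.00, 6.99 and 6.81. Gata2, a factor of stem cells and mast cells, rose in both (8.49 and 8.91 against 7.63, 7.28 and 7.37, 1.27 ± 0.23, adjusted p = 0.000259). In the other direction, the genes farthest above leukaemia 2 in leukaemia 1 were Kel, a blood group gene of red cells (12.30 and 6.42, precursors 8.57, 6.30 and 6.30), Pkhd1l1 (5.79 log2 units above leukaemia 2, precursors 6.30, 5.58 and 5.43) and Rhag, of the Rhesus complex of red cells (11.78 and 6.16, precursors 8.20, 5.59 and 5.59). Gata1, the erythroid and megakaryocytic factor, read 10.30 and 6.42 against 6.49, 6.06 and 6.00 (2.18 ± 0.80, adjusted p = 0.0322), a call lost without leukaemia 1 (adjusted p = 0.822), precursor 2 (adjusted p = 0.0695) or precursor 3 (adjusted p = 0.0757) and with the group spread (adjusted p = 0.0805). Among those highest in leukaemia 2 were Siglech, a plasmacytoid dendritic cell gene (6.38 and 10.96, precursors 9.62, 10.54 and 8.90), and Mc5r, a melanocortin receptor (7.32 and 11.93 against 6.06, 5.68 and 5.62, 3.84 ± 0.68, adjusted p = 0.000261), lost with the 5 arrays alone (adjusted p = 0.116). Mecom, Hoxa9, Mycn, Kel, Pkhd1l1, Rhag and Siglech are given as values, since the spread between the leukaemias was as large as the change itself or was the reason for naming them.

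**Figure D2:**
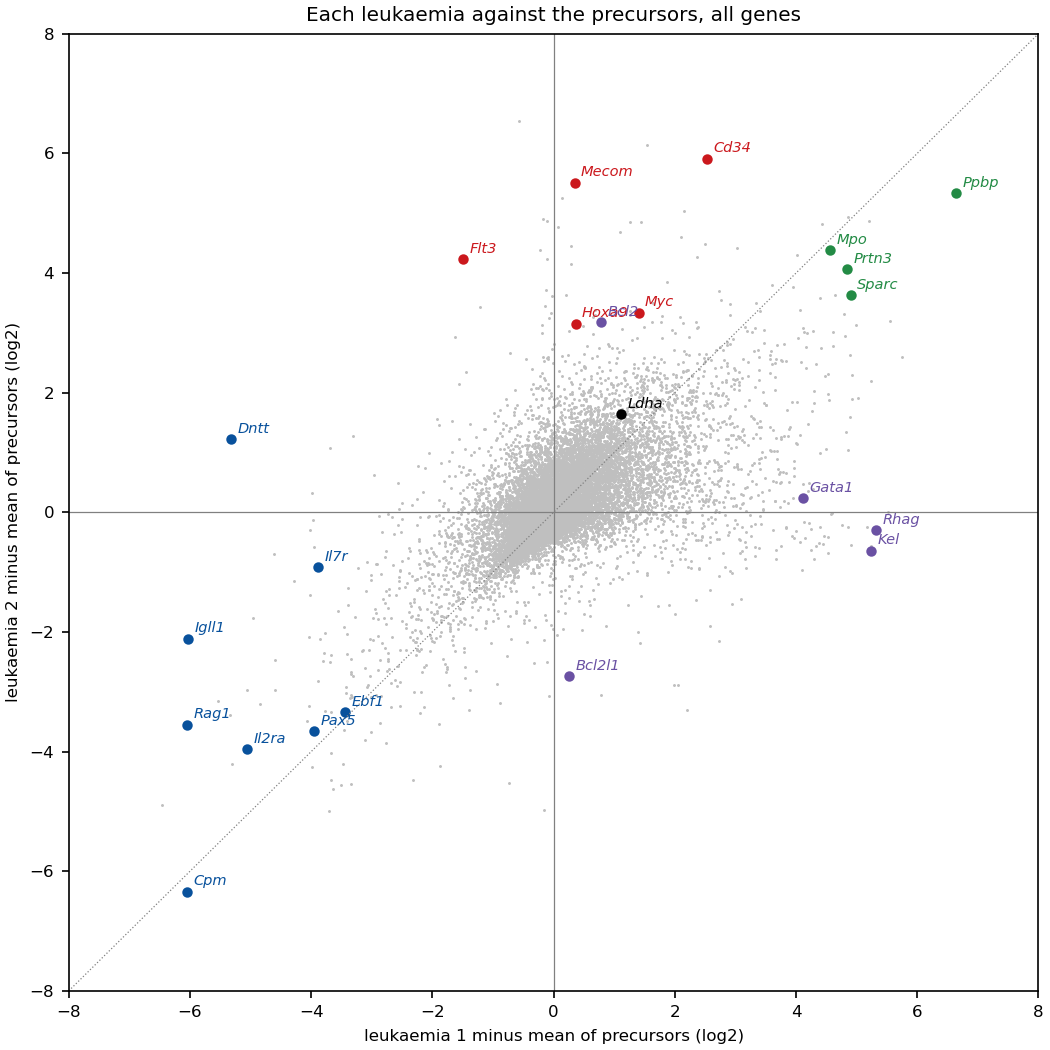
Difference of leukaemia 1 (horizontal axis) and of leukaemia 2 (vertical axis) from the mean of the 3 precursor arrays, in log2 units, for 19938 genes; the dotted line marks equal differences. Pax5, Ebf1 and Cpm lie low and near the line, Dntt, Flt3 and Mecom lie above it, and Gata1, Kel and Rhag lie far to the right of it.

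BCR/ABL is known to feed JAK/STAT and ERK signalling and to support survival. Of 18 JAK/STAT genes 2 rose and 4 fell (1 and 2 without leukaemia 1), and the sign of their median (0.21) turned to -0.04 after quantile normalization. Jak2, a cytokine receptor kinase, read 10.12 and 9.82 in the leukaemias and 8.68, 8.40 and 7.87 in the precursors (1.65 ± 0.34, adjusted p = 0.000823), and Socs1, a feedback inhibitor, read 7.48 and 7.59 against 8.87, 8.97 and 9.40 (-1.55 ± 0.41, adjusted p = 0.00506). The STAT5 targets Cish (7.37 and 7.27 against 6.72, 6.84 and 6.91), Pim1 (10.95 and 10.92 against 10.76, 10.64 and 10.41) and Socs2 (8.31 and 9.67 against 8.37, 9.10 and 8.24) did not pass the test (adjusted p = 0.592, adjusted p = 0.236 and adjusted p = 0.681), and of these Cish passed with the 5 arrays alone (adjusted p = 0.046). The probe set used for Socs2 changed by 0.42 and its other probe set by -0.32, so the direction for Socs2 is not settled. Of 12 ERK feedback genes 1 rose and 2 fell. Spred1, an inhibitor of RAS signalling, changed by 2.11 ± 0.54 (adjusted p = 0.00415), a call lost without leukaemia 2 (adjusted p = 0.0532), and the phosphatase Dusp5 by -2.00 ± 0.34 (adjusted p = 0.000193). Dusp6, the ERK phosphatase, read 8.19 and 9.99 against 9.80, 10.06 and 9.97 (-0.85 ± 0.75, adjusted p = 0.369).

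Of 17 BCL2 family and apoptosis genes 2 rose and 4 fell, against 4 and 4 without leukaemia 1 and 0 and 3 without leukaemia 2. The shares are near or below those of all genes (18.1% and 27.6%), as are those of the JAK/STAT and ERK genes. Bcl2, which protects from apoptosis, read 9.16 and 11.56 in the leukaemias and 8.51, 8.76 and 7.87 in the precursors (1.98 ± 0.50, adjusted p = 0.00388), highest in leukaemia 2, without which the call was lost (adjusted p = 0.191). Bcl2l1, which encodes the related BCL-XL and serves erythroid cells among others, read 10.74 and 7.74 against 10.57, 10.42 and 10.46 and did not pass (-1.24 ± 0.54, adjusted p = 0.0663). Leukaemia 2 lay more than 2 log2 units below the other 4 arrays for Bcl2l1, and leukaemia 1 lay slightly above the precursors. Without leukaemia 1 the change passed (adjusted p = 0.000124), as it did after median centring (adjusted p = 0.049) and quantile normalization (adjusted p = 0.0459). Of the pro-apoptotic genes, Bmf fell in both (7.56 and 8.41 against 10.39, 10.53 and 10.71, -2.56 ± 0.31, adjusted p = 6.22e-06), Bid rose (1.32 ± 0.30, adjusted p = 0.00198) with a call lost without leukaemia 2 (adjusted p = 0.0823), and Bcl2l11, which encodes BIM, did not pass the test (7.86 and 7.64 against 8.68, 8.60 and 8.59, adjusted p = 0.0622). Bcl2l11 passed as lower with the 5 arrays alone (adjusted p = 0.0223), after cyclic loess (adjusted p = 0.0283) and after quantile normalization (adjusted p = 0.0169), and the adjusted p was 0.215 with the group spread.

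Cell cycle genes were higher in leukaemia, most plainly those of DNA replication, of which 25 of 29 rose and none fell (median 0.97). Mitosis and spindle genes rose in 17 of 23 cases with none lower (median 1.11), and genes of G1 control in 8 of 20 with none lower (median 0.53). These counts leaned on the shared spread. With the group spread 8 replication genes, 0 mitosis genes and 3 G1 genes were called. Without leukaemia 1 the counts were 16, 3 and 5, and without precursor 3 they were 20, 6 and 3. In addition, 3 G1 genes fell without leukaemia 1, and the median of the G1 list was then 0.24. After quantile normalization 9 mitosis genes rose, and 5 G1 genes rose while 2 fell. Orc1, a subunit of the origin recognition complex, read 9.30 and 7.67 in the leukaemias and 6.62, 6.17 and 6.32 in the precursors (2.12 ± 0.34, adjusted p = 0.000121), highest in leukaemia 1 and lost with the 5 arrays alone (adjusted p = 0.0589). Cdt1, which loads the replicative helicase, read 9.99 and 9.87 against 8.80, 8.56 and 8.55 (1.29 ± 0.21, adjusted p = 0.00011). Mitotic genes varied among the precursors, with list medians of 0.45, 0.17 and -0.61 around their mean. Precursor 3 was the lowest of the 3. Kif20a, a mitotic kinesin, read 10.33 and 9.87 against 8.83, 8.91 and 8.14 (1.47 ± 0.34, adjusted p = 0.00206), and Cdc20, an activator of the anaphase-promoting complex, read 10.01 and 9.53 against 8.73, 8.67 and 8.46 (1.15 ± 0.26, adjusted p = 0.00193). Both calls were lost with the group spread (adjusted p = 0.081 and adjusted p = 0.0697).

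In the G1 group Cdk6, a partner of D cyclins, read 11.09 and 12.18 against 10.65, 9.95 and 9.49 (1.61 ± 0.34, adjusted p = 0.00115), a call lost with the 5 arrays alone (adjusted p = 0.0863). Ccnd2, a cyclin that BCR/ABL signalling is known to raise, read 10.55 and 11.75 against 9.71, 10.39 and 9.23 (1.38 ± 0.42, adjusted p = 0.0118), with a call lost without leukaemia 2 (adjusted p = 0.215), without precursor 3 (adjusted p = 0.0585) and with the group spread (adjusted p = 0.13). Ccnd3 (0.12 ± 0.28, adjusted p = 0.747) and the inhibitors Cdkn1b (-0.49 ± 0.23, adjusted p = 0.0899) and Cdkn2a (-0.12 ± 0.20, adjusted p = 0.662) did not pass, though Cdkn1b passed as lower without leukaemia 1 (adjusted p = 0.0185) and after quantile normalization (adjusted p = 0.027). Cdkn2a, which encodes p16 and p19ARF and is often lost in BCR/ABL leukaemia, read 6.87 and 6.63 against 6.85, 6.88 and 6.88 and differed little between any 2 of the 5 arrays. Wild-type precursors and B220+ cells read 6.73 to 7.10 as well, so these levels show neither loss nor retention of the gene.

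The promoters of 2 cell cycle genes are shown for the short sites known to mark their groups. They come from RefSeq (GRCm38.p6), cover 250 bases and end 1 base before the start. In Mcm6, a subunit of the replicative helicase that changed by 0.95 ± 0.30 (adjusted p = 0.014), capitals mark the E2F letters searched, TTTCCCGC or TTTGGCGC on either strand. They stood in 1.35% of 27025 promoter windows and in 6 of 23 found for the replication list. In Ccnb2, cyclin B2, which changed by 0.67 ± 0.26 (adjusted p = 0.0421), capitals mark CCAAT on either strand, found in 34.5% of all windows and in 15 of 19 for the mitosis list.
Mcm6 (chr1:128359706-128359955, minus strand): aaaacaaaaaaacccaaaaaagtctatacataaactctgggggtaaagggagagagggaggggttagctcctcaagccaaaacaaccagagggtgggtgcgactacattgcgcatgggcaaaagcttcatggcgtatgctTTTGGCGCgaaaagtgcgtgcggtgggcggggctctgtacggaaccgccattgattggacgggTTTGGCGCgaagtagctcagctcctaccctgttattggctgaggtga
Ccnb2 (chr9:70421555-70421804, minus strand): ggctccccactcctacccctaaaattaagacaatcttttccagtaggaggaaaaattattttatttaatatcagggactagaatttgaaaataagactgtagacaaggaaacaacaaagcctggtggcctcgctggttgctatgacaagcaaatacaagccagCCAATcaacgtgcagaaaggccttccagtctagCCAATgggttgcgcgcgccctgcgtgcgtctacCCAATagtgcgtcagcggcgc
The 2 E2F matches of Mcm6 begin 110 and 47 bases before the start, and the 3 CCAAT matches of Ccnb2 begin 87, 54 and 21 bases before it, at equal spacing. Both genes were chosen for these letters after their values were seen. Neither call held after quantile normalization (adjusted p = 0.0519 for Mcm6 and adjusted p = 0.0801 for Ccnb2). Array weights also ended both (adjusted p = 0.183 and adjusted p = 0.338). The call of Mcm6 was lost without leukaemia 2 (adjusted p = 0.071) or precursor 3 (adjusted p = 0.0691), with the group spread (adjusted p = 0.151) and with the 5 arrays alone (adjusted p = 0.0676). That of Ccnb2 was lost without leukaemia 1 (adjusted p = 0.295) or precursor 3 (adjusted p = 0.175), with the group spread (adjusted p = 0.275), with the 5 arrays alone (adjusted p = 0.127) and after cyclic loess (adjusted p = 0.0721).

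MYC and its ribosome programme were higher, with 18 of 22 genes up and none down (median 1.07), 0.69 in leukaemia 1 and 1.27 in leukaemia 2. Without leukaemia 2 10 were called. Myc read 9.97 and 11.91 in the leukaemias and 8.71, 8.88 and 8.11 in the precursors (2.37 ± 0.60, adjusted p = 0.00415), with both leukaemias above all precursors and a call lost without leukaemia 2 (adjusted p = 0.116). Nop58, a protein of ribosomal RNA processing, read 9.41 and 10.12 against 8.21, 7.48 and 7.41 (2.06 ± 0.25, adjusted p = 6.05e-06), and nucleolin, Ncl, read 11.69 and 11.82 against 10.89, 10.68 and 10.35 (1.11 ± 0.17, adjusted p = 7.76e-05).

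Nucleotide and one-carbon genes rose in 18 of 24 cases with none lower, and the 2 leukaemias had nearly the same median (1.22 and 1.21). Shmt2, the mitochondrial enzyme that draws one-carbon units from serine, read 10.03 and 10.26 in the leukaemias and 7.64, 8.48 and 7.90 in the precursors (2.14 ± 0.22, adjusted p = 1.49e-06). Mthfd1, which carries these units on folate, read 10.39 and 9.64 against 8.07, 7.63 and 7.33 (2.34 ± 0.37, adjusted p = 0.00011), and Ctps, which makes CTP, changed by 1.35 ± 0.22 (adjusted p = 0.000114). Of 13 amino acid transporters and glutamine enzymes 6 rose and none fell (median 0.68), while 1 fell without leukaemia 1 and 2 without leukaemia 2. Slc7a1, which imports arginine and lysine, read 10.06 and 10.23 against 8.26, 8.35 and 8.04 (1.93 ± 0.20, adjusted p = 1.56e-06), and Slc7a5 and Slc3a2, the chains of the leucine transporter, changed by 2.40 ± 0.37 (adjusted p = 7.14e-05) and 1.36 ± 0.20 (adjusted p = 5.6e-05). Both leukaemias were above every precursor for these 6 genes.

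Glucose uptake and glycolysis genes were higher in 14 of 20 cases and lower in 1, with medians of 0.73 and 1.17 in leukaemia 1 and 2. With the 5 arrays alone 6 were called, all higher. Ldha, lactate dehydrogenase A, read 11.97 and 12.50 in the leukaemias and 10.93, 11.12 and 10.53 in the precursors (1.38 ± 0.16, adjusted p = 4.91e-06). Pdk1, the kinase that closes pyruvate dehydrogenase, read 8.51 and 9.60 against 7.04, 7.11 and 6.90 (2.04 ± 0.26, adjusted p = 1.27e-05), and Aldoa, aldolase A, read 11.72 and 11.72 against 10.45, 10.67 and 10.61 (1.14 ± 0.13, adjusted p = 2.81e-06). No leukaemia array overlapped a precursor array for these enzymes. Hexokinase 2, Hk2, the entry enzyme, read 8.17 and 8.23 against 7.52, 6.92 and 6.82 (1.11 ± 0.24, adjusted p = 0.00132), with precursor 1 nearest to the leukaemias. Of the glucose transporters, Slc2a3 read 10.95 and 10.20 against 9.51, 7.81 and 7.67 (2.24 ± 0.46, adjusted p = 0.00093) and was lost with the 5 arrays alone (adjusted p = 0.082). Slc2a1 read 8.98 and 10.19 against 9.27, 9.20 and 9.35 and did not pass (0.31 ± 0.27, adjusted p = 0.363), with leukaemia 2 above and leukaemia 1 below the precursors, and passed without leukaemia 1 (adjusted p = 0.0152). Neutrophils and platelets are known for high Slc2a3, and precursor 1, which had the highest neutrophil markers of the 3, was also the highest precursor for Slc2a3 and Hk2. The part of such cells in the changes of Slc2a3 and Hk2 was not tested. Pfkfb3, which makes an activator of phosphofructokinase, was the member that fell (-0.69 ± 0.21, adjusted p = 0.0115), a call lost without leukaemia 1 (adjusted p = 0.181) and with the group spread (adjusted p = 0.106).

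Genes that link PAX5 and IKZF1 to the restraint of glucose use gave a mixed picture, with 6 of 14 higher and none lower and a median of -0.07 in leukaemia 1 and 0.39 in leukaemia 2. Without leukaemia 1 3 were higher and 1 lower. Txnip, which holds glucose transporters off the surface, read 11.07 and 11.18 in the leukaemias and 11.32, 11.09 and 11.29 in the precursors, a change of -0.11 ± 0.32 (adjusted p = 0.807). Nr3c1, the glucocorticoid receptor, read 8.96 and 9.71 against 9.51, 8.92 and 9.09 (0.16 ± 0.25, adjusted p = 0.625), and Cnr2, a cannabinoid receptor, read 7.53 and 6.56 against 7.60, 7.38 and 7.75 (-0.53 ± 0.33, adjusted p = 0.195). The leukaemia arrays overlapped the precursors for Txnip and Nr3c1, and leukaemia 1 did for Cnr2, which passed as lower without leukaemia 1 (adjusted p = 0.0483). Insr, the insulin receptor, changed by -0.23 ± 0.25 (adjusted p = 0.454). Stk11, which encodes the energy sensor kinase LKB1, rose by 0.68 ± 0.15 (adjusted p = 0.00122), a call lost without leukaemia 1 (adjusted p = 0.052). In the pentose phosphate pathway 4 of 6 genes rose, among them Pgd (11.58 and 11.39 against 10.61, 9.77 and 9.72, 1.45 ± 0.24, adjusted p = 0.000163) and Tkt (1.36 ± 0.24, adjusted p = 0.00022), while Pgls, the lactonase between the 2 dehydrogenase steps, fell (9.23 and 9.59 against 11.13, 10.95 and 11.68, -1.84 ± 0.33, adjusted p = 0.000266).

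Mitochondrial energy genes moved less. Citric acid cycle and pyruvate dehydrogenase genes rose in 9 of 20 cases with a median of 0.33, and oxidative phosphorylation subunits in 12 of 43 with 1 lower and a median of 0.21. With the group spread 3 and 1 were called, and without leukaemia 1 5 subunits were. After quantile normalization 4 citric acid cycle genes rose and 1 fell, and 3 subunits rose and 3 fell. Idh3a, a subunit of isocitrate dehydrogenase, read 9.91 and 10.36 in the leukaemias and 8.82, 8.87 and 8.12 in the precursors (1.53 ± 0.18, adjusted p = 5.35e-06). Ndufv1, a complex I subunit, read 10.39 and 10.11 against 9.37, 9.44 and 9.14 (0.93 ± 0.10, adjusted p = 2.41e-06). Both genes were higher in each leukaemia than in any precursor.

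Cholesterol and fatty acid synthesis genes rose in 11 of 17 cases with none lower, more in leukaemia 2 (median 1.41) than in leukaemia 1 (0.50), and 5 were called higher and 1 lower without leukaemia 2. Idi1, an isomerase of the mevalonate pathway, read 8.77 and 9.67 in the leukaemias and 7.13, 7.56 and 6.81 in the precursors (2.05 ± 0.36, adjusted p = 0.000235), and Acaca, acetyl-CoA carboxylase, read 9.20 and 9.72 against 8.07, 7.77 and 7.32 (1.74 ± 0.31, adjusted p = 0.000269). Antioxidant enzymes rose in 12 of 19 cases with none lower, more in leukaemia 1 (1.15) than in leukaemia 2 (0.38), and without leukaemia 1 7 rose and 1 fell. Sod2, the mitochondrial superoxide dismutase, read 10.48 and 10.62 against 9.46, 9.69 and 9.40 (1.03 ± 0.11, adjusted p = 2.75e-06). Interferon response genes rose in 8 of 16 cases with none lower, with medians of 2.06 and 0.89, and 1 was called without leukaemia 1, 5 without precursor 2 and 4 without precursor 3. Irf7, a driver of this response, read 10.73 and 9.82 against 7.62, 8.14 and 7.53 (2.51 ± 0.61, adjusted p = 0.0028), and the RNA sensor Ifih1 read 10.02 and 8.03 against 6.71, 6.52 and 6.55 (2.43 ± 0.51, adjusted p = 0.00111), a call lost without leukaemia 1 (adjusted p = 0.0517). Among homing receptors 3 of 13 rose and 3 fell, near the shares of all genes (18.1% and 27.6%). The counts were 5 and 3 without leukaemia 1, and the median of 0.16 became 0.88 without leukaemia 1 and -0.09 without leukaemia 2. Cxcr4, which holds cells in the marrow, read 10.78 and 11.38 against 12.42, 12.38 and 12.39 (-1.31 ± 0.16, adjusted p = 5.78e-06), and Itgb1, integrin beta 1, read 10.68 and 10.41 against 8.61, 8.72 and 7.88 (2.14 ± 0.30, adjusted p = 2.97e-05).

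**Figure D3:**
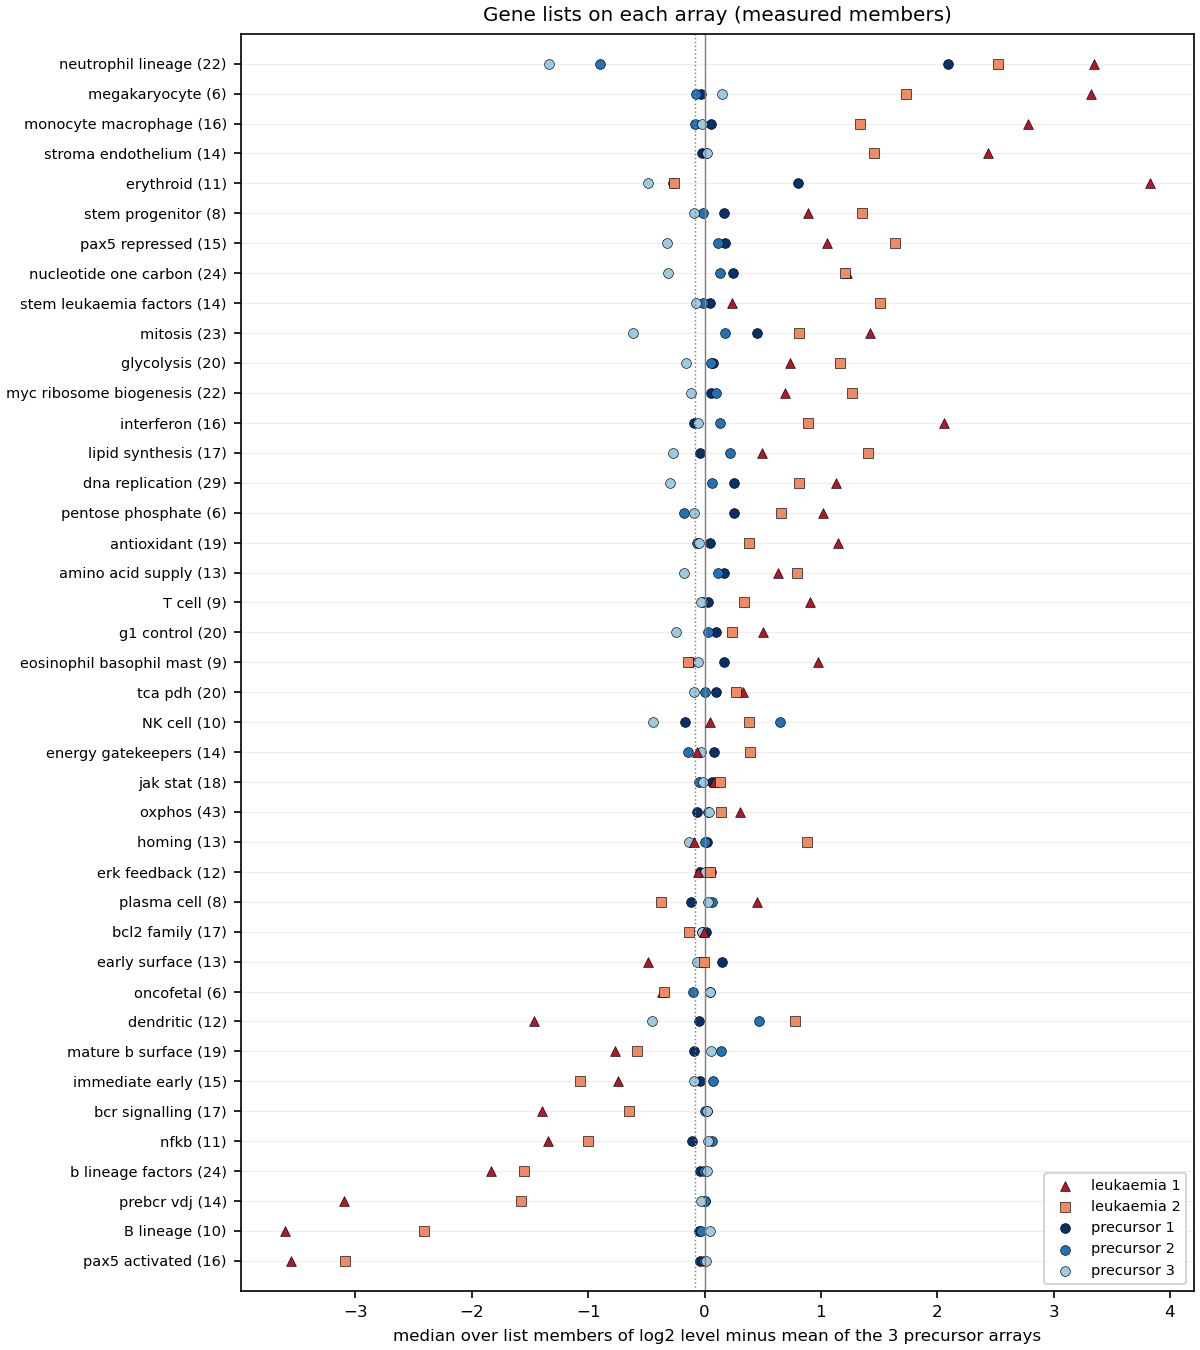
Median over the measured members of each gene list of the log2 level minus the mean of the 3 precursor arrays, for each of the 5 arrays (number of members in brackets; dotted line: median change of all genes). Pax5-activated genes lie at -3.55 and -3.09 and B lineage markers at -3.61 and -2.41 in leukaemia 1 and 2, the erythroid list is high in leukaemia 1 at 3.83 and the neutrophil list is at 2.09 in precursor 1.

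Genes of other blood lineages were among those that rose most, and they did so unevenly. Of 22 neutrophil and granulocyte precursor genes 11 rose and none fell, with medians of 3.35 and 2.52 in the leukaemias. Precursor 1 carried these genes too, since the precursor medians were 2.09, -0.90 and -1.34, and without precursor 1 18 of 22 were called. Without leukaemia 1, precursor 2 or precursor 3 the count was 7 each time. Mpo, myeloperoxidase, read 12.44 and 12.26 in the leukaemias and 9.78, 6.81 and 7.03 in the precursors (4.48 ± 0.93, adjusted p = 0.00096). Elane, neutrophil elastase, read 12.55 and 11.87 against 10.13, 7.55 and 7.77 (3.73 ± 0.75, adjusted p = 0.000738). Precursor 1 lay between the leukaemias and the other precursors for both, and both calls were lost with the 5 arrays alone (adjusted p = 0.0514 and adjusted p = 0.0565). Prtn3, proteinase 3, read 11.76 and 10.98 against 7.98, 6.33 and 6.44 (4.45 ± 0.51, adjusted p = 3.67e-06). Its promoter is shown (RefSeq, GRCm38.p6) with the PU.1 letters GAGGAAGT, searched on both strands, in capitals. They stood in 2.44% of 27025 windows and in 6 of 20 found for the neutrophil list.
Prtn3 (chr10:79879417-79879666, plus strand): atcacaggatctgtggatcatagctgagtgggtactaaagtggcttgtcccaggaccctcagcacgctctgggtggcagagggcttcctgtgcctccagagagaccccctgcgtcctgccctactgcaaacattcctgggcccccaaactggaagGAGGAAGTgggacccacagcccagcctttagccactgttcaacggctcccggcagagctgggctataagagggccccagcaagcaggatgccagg
The match begins 95 bases before the start. Among the members that did not pass were S100a8 (13.23 and 12.43 against 12.58, 8.67 and 8.26, adjusted p = 0.0909) and Ltf, lactoferrin (12.66 and 12.02 against 12.16, 8.32 and 7.09, adjusted p = 0.0619), both named after their values were seen.

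Monocyte and macrophage genes rose in 9 of 16 cases, and without leukaemia 1 2 were called. C1qb, a complement chain of macrophages, read 11.55 and 9.33 in the leukaemias and 7.01, 6.93 and 7.12 in the precursors (3.42 ± 0.80, adjusted p = 0.00237), a call lost without leukaemia 1 (adjusted p = 0.0672), and Mrc1, the mannose receptor, read 10.09 and 7.89 against 5.69, 5.52 and 5.62 (3.38 ± 0.70, adjusted p = 0.000893). Of 6 megakaryocyte genes 4 rose, and without leukaemia 1 2 did. Ppbp, a platelet chemokine and the largest rise of all genes under the naming rule, read 13.37 and 12.06 against 6.39, 6.76 and 7.01 (5.99 ± 0.70, adjusted p = 4.48e-06). Stroma and endothelium genes rose in 12 of 14 cases and fell in 1, and without leukaemia 1 6 rose. Sparc, a matrix glycoprotein, read 11.77 and 10.50 against 6.93, 6.88 and 6.80 (4.26 ± 0.45, adjusted p = 1.49e-06), and Bgn, biglycan, read 11.09 and 9.22 against 5.98, 6.11 and 6.20 (4.06 ± 0.52, adjusted p = 1.25e-05). Leukaemia 1 was the higher of the 2 for all 5 of these genes, and the precursors lay close together. Of 11 erythroid genes 5 rose, 0 did without leukaemia 1, 9 without leukaemia 2, 1 without precursor 2 and 0 without precursor 3. Of 10 NK cell genes 0 passed the limma test, with 1 at an unadjusted p below 0.05, and of 12 dendritic cell genes 0 passed, with 0 at that level. Without leukaemia 1 1 dendritic gene was higher, and without leukaemia 2 4 were lower. Of 9 T cell genes 1 rose (0 without leukaemia 2), and of 8 plasma cell genes 3 rose and 3 fell. Of 9 eosinophil, basophil and mast cell genes 4 rose (2 without leukaemia 1). Among all genes 18.1% were higher and 27.6% lower, and lists of 8 or 9 genes give only a coarse share to set beside these.

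Among all genes whose leukaemia and precursor arrays did not overlap, the largest falls were led by Cpm, carboxypeptidase M, which read 5.45 and 5.16 in the leukaemias and 11.44, 11.45 and 11.61 in the precursors (-6.20 ± 0.37, adjusted p = 1.64e-09). It was followed by Vpreb3, Rag1, Niban3 (7.50 and 8.59 against 12.70, 12.80 and 12.92, -4.76 ± 0.62, adjusted p = 1.39e-05) and Il2ra. Next came Myl4, a myosin light chain (7.16 and 9.11 against 12.47, 12.52 and 12.52, -4.37 ± 0.71, adjusted p = 0.000121), Bach2, Trib2, a pseudokinase (-4.34 ± 0.52, adjusted p = 5.91e-06), Akap12, a scaffold of protein kinase A (-4.13 ± 0.41, adjusted p = 7.85e-07), and Irf4. Each of these 10 genes was more than 3 log2 units below every precursor in both leukaemias. After Ppbp the largest rises were Ctsg, cathepsin G of granulocytes (12.29 and 11.96 against 8.81, 6.43 and 6.01, 5.04 ± 0.79, adjusted p = 9.48e-05), Ly6a2, of the Ly6 antigen family (11.84 and 11.92 against 6.34, 7.22 and 7.39, 4.90 ± 1.38, adjusted p = 0.00788), Emb, Mpo and Prtn3. The call of Ly6a2 was lost with the group spread (adjusted p = 0.174). Serping1, the C1 inhibitor (4.37 ± 0.60, adjusted p = 2.6e-05), Sparc, Cd34 and Ibsp, bone sialoprotein (11.40 and 8.25 against 5.66, 5.68 and 5.60, 4.18 ± 0.72, adjusted p = 0.000219), completed the list, and the call of Ibsp was lost with the 5 arrays alone (adjusted p = 0.0528).

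The same step was measured in Pax5+/- mice with other arrays, 7 leukaemias and 3 precursor samples, so the 2 changes share no sample. In the heterozygotes 8918 genes (44.7%) were called, 3263 higher (16.4%) and 5655 lower (28.4%). Across genes, which are not independent replicates, the 2 changes correlated at 0.80 (Pearson) and 0.78 (Spearman), and 6165 genes were called in the same direction in both, 67.6% of the calls with both copies and 69.1% of those in heterozygotes. Another 29 were called in opposite directions. The test of the difference between the 2 changes called 138 genes (0.692%), 93 with a more positive change with both copies (0.466%) and 45 with a more negative one (0.226%), and 2614 at an unadjusted p below 0.05. That number moved with the spread and with single arrays, to 18 with the group spread, 1381 without leukaemia 2, 301 without leukaemia 1, 52 without precursor 2, 59 without precursor 3, 80 without heterozygous precursor 1, and 211 and 222 without heterozygous leukaemia 5 or 6.

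Of 22 neutrophil genes 5 passed the test of the difference. Prtn3, at 11.76 and 10.98 in leukaemia 1 and 2, read 6.31, 7.31 and 8.52 (lowest, median, highest) in the heterozygous leukaemias, with precursors at 7.98, 6.33 and 6.44 and 6.80, 6.43 and 6.37. The difference of the changes was 3.60 ± 0.64 (adjusted p = 0.0091). The granulocyte genes Ms4a3 (3.01 ± 0.57, adjusted p = 0.0146), Padi4 (2.88 ± 0.50, adjusted p = 0.00742) and Cebpe (2.19 ± 0.35, adjusted p = 0.00443) also changed more positively with both copies. With the group spread the differences of Prtn3, Ms4a3, Padi4 and Cebpe were lost (adjusted p = 0.148, adjusted p = 0.0965, adjusted p = 0.225 and adjusted p = 0.0965). Mc5r read 5.43, 5.59 and 5.84 in the heterozygous leukaemias and 5.66, 5.95 and 5.59 in their precursors (3.98 ± 0.85, adjusted p = 0.0316), so that it was high in leukaemia 2 and, at a lower level, in leukaemia 1. Padi4 and Mc5r were named by the rule for this test, as were Serpinb9d and Plch1.

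Other genes fell more with both copies or rose in the heterozygotes. Jun, which fell to 8.10 and 8.37 with both copies, read 10.26, 10.95 and 11.47 in the heterozygous leukaemias and 11.68, 11.27 and 11.66 in their precursors (-2.63 ± 0.32, adjusted p = 0.000334). Il2ra read 9.52, 10.49 and 12.11 against 12.24, 12.36 and 12.82 in the heterozygotes (-2.88 ± 0.62, adjusted p = 0.0339), and Tnfrsf13c 9.27, 10.28 and 11.11 against 11.66, 10.54 and 11.13 (-2.33 ± 0.50, adjusted p = 0.0302). For these genes the fall was smaller in heterozygous leukaemia, and both leukaemias with both copies lay below every heterozygous one. Serpinb9d, of the granzyme inhibitor family, read 4.78 and 4.65 with both copies and 6.63, 10.52 and 11.50 in heterozygous leukaemias (-5.36 ± 1.05, adjusted p = 0.0172). Igf2bp3, an oncofetal RNA-binding protein, read 5.68 and 5.69 and 7.80, 9.19 and 9.60 (-3.08 ± 0.41, adjusted p = 0.000811), and Plch1, a phospholipase C, read 5.10 and 5.33 and 7.24, 7.90 and 9.27 (-3.01 ± 0.48, adjusted p = 0.00443). None of these 3 genes passed the test between leukaemia and precursors with both copies (adjusted p = 0.963, adjusted p = 0.316 and adjusted p = 0.712). With the group spread the differences of Jun, Igf2bp3, Plch1 and Mc5r still passed, 4 of the 14 named for this test. The difference for Pax5 itself was -2.08 ± 0.84 (adjusted p = 0.288), and of the 24 B lineage factors 0 passed limma's test of the difference, with 8 at an unadjusted p below 0.05.

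**Figure D4:**
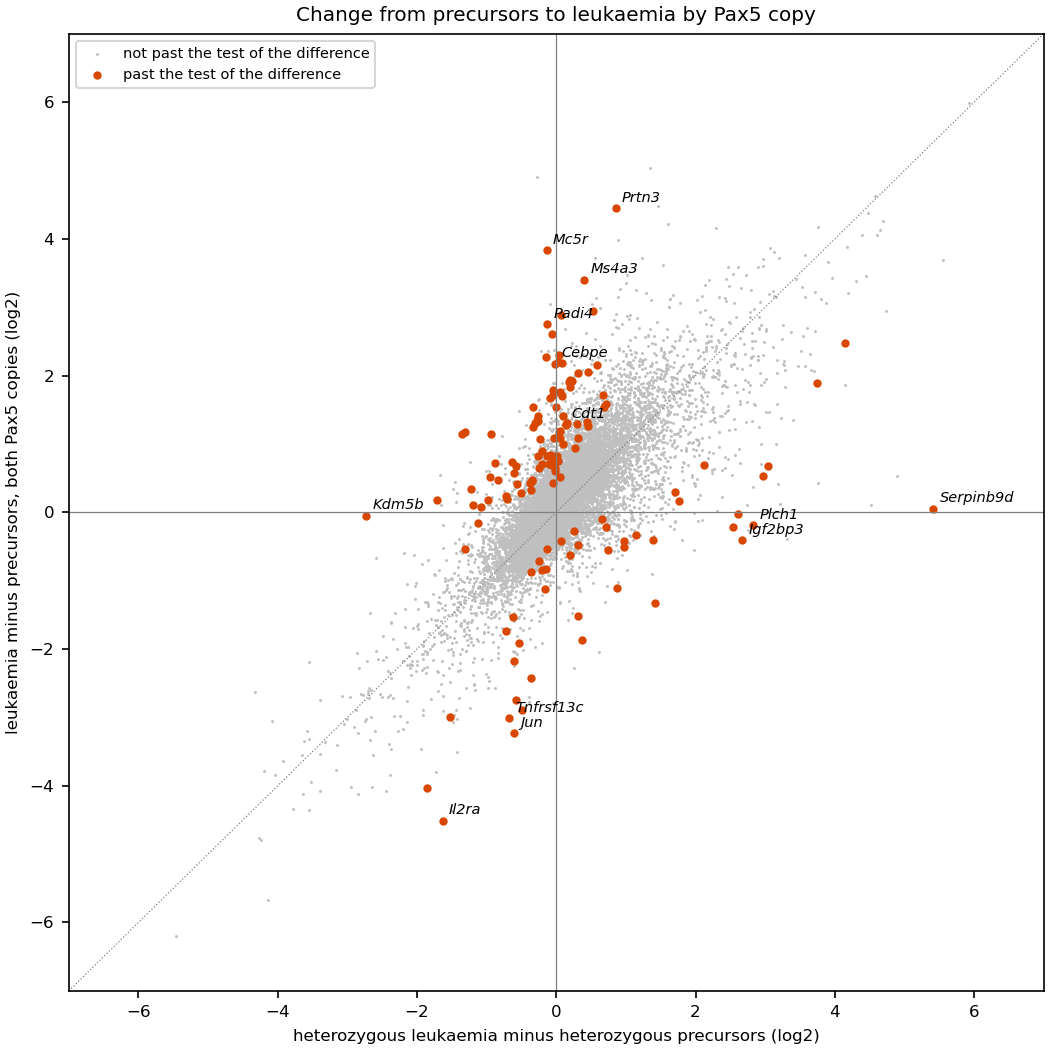
Change from precursors to leukaemia in heterozygous mice (horizontal axis) and in mice with both Pax5 copies (vertical axis), log2 units, for 19938 genes; the dotted line marks equal changes and the 138 larger points passed the test of the difference. Prtn3, Ms4a3 and Mc5r lie above the line, and Serpinb9d, Igf2bp3, Jun and Il2ra lie below it.

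Kcnma1, which encodes a potassium channel subunit, was set apart by its probe sets. The probe set with the higher mean read 11.52 and 13.50 in the leukaemias and 6.92, 13.88 and 6.26 in the precursors (3.49 ± 1.88, adjusted p = 0.133), so that precursor 2 was as high as the leukaemias and precursors 1 and 3 were low, and the call appeared without precursor 2 (adjusted p = 0.00837). Its annotation lists no RefSeq transcript. The other probe set, which lists 17, lay between 5.28 and 5.71 on all 24 arrays and changed by -0.04. The 2 probe sets disagree, and the high values cannot be assigned to the Kcnma1 transcript from these data.

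**Figure D5:**
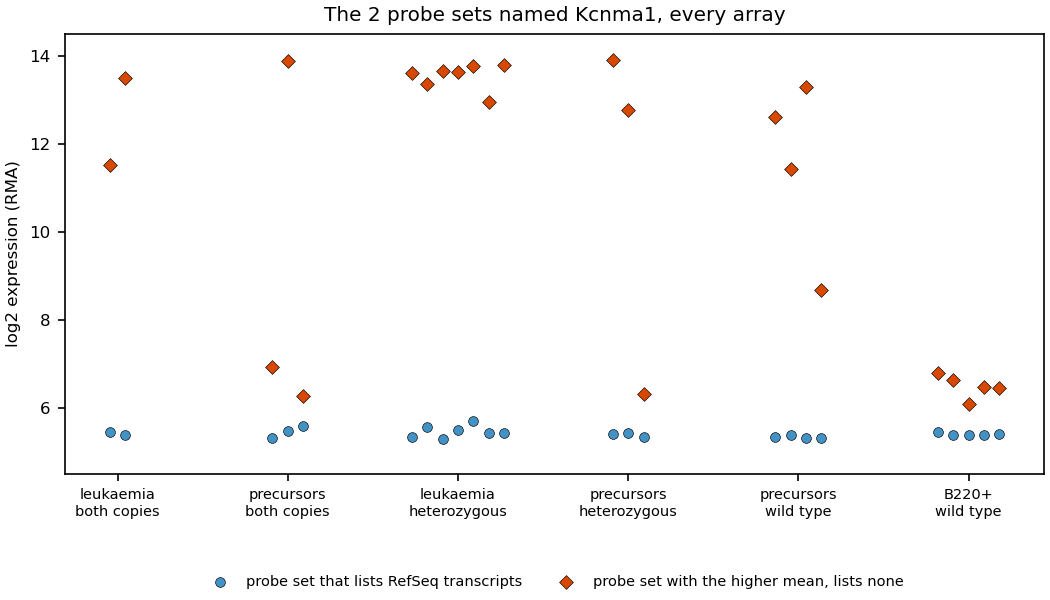
The 2 probe sets named Kcnma1 on all 24 arrays (vertical axis: RMA log2 expression; diamonds: the probe set with the higher mean; circles: the one that lists RefSeq transcripts). The diamonds fall into high and low arrays within both transgenic precursor groups, while the circles stay between 5.28 and 5.71.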

How the data were processed

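Total RNA was measured on 24 Affymetrix arrays, and the deposited table holds log2 expression values for 35556 probe sets that the authors derived by RMA with the oligo package of R (per the submitters' processing notes). RMA corrects background, normalises all arrays to 1 distribution and summarises probes, so overall shifts between samples are partly removed. No source used here gives the versions or the annotation build. In the platform annotation 21789 probe sets had 1 gene symbol, 1621 several and 12146 none, and 21698 matched RefSeq (GRCm38.p6) by gene ID. One probe set per symbol was kept, that with the highest mean over the 24 arrays, which gave 19938 genes (999 had several). No probe set was filtered, and the number of arrays limits the precision.

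Groups were taken from the titles. One limma model (version 3.58.1, R 4.3.3) of 6 group means over all 24 arrays, with 18 residual degrees of freedom, gave the contrast of leukaemia with precursors (2 and 3 arrays) and its difference from the same contrast in heterozygotes (7 and 3), two-sided with Benjamini-Hochberg adjustment over all genes. The model was tested first on simulated data with known changes and normal noise, in which all groups shared the spread of each gene. That test does not cover groups of unequal spread such as the 2 leukaemias. The labels call the replicates biological, and the series text counts 3 wild-type precursor mice where the labels give 4. Leukaemia and precursors share replicate numbers 1 and 2, and deviations of same-numbered arrays correlated at 0.167 and 0.183, which with 2 pairs does not establish pairing. The members, the 41 gene lists and the rules were chosen with earlier results of these data known. Genes were named by rule: 47 key genes, the 10 largest rises and 10 largest falls without overlap, up to 3 genes a list and direction, and 4 genes each way for the difference. Alternatives were other scalings, weights, filters, covariates and each array left out. A spread of its own for each group was added after seeing the data. Promoters cover 250 bases before each RefSeq start.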

Additional observations from a re-analysis of the deposited data

Results flagged for a closer look

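The change from precursors to leukaemia differed between mice with both Pax5 copies and heterozygous mice for 14 of the genes named here, by limma's test of the difference itself with Benjamini-Hochberg adjustment. More positive with both copies were Mc5r (3.98), Prtn3 (3.60), Ms4a3 (3.01), Padi4 (2.88), Cebpe (2.19), Cdt1 (1.15) and Ndufv1 (0.67), in log2 units. Prtn3, Ms4a3, Padi4 and Cebpe are genes of granulocytes and their precursors, whose marker list had a median change of 2.94 with both copies and 0.73 in heterozygotes. More negative with both copies were Serpinb9d (-5.36), Igf2bp3 (-3.08), Plch1 (-3.01), Il2ra (-2.88), Jun (-2.63), Tnfrsf13c (-2.33) and Cd37 (-1.02). Each rests on 2 leukaemias with both copies, and 8 of the 14 still passed without leukaemia 1, 14 without leukaemia 2, 7 without precursor 2 and 6 without precursor 3. With only the arrays compared 2 passed, Cebpe and Jun, with array weights 6 and with a spread for each group 4.

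Within the 7 heterozygous leukaemias, the gap between 1 array and its nearest neighbour was 0.66 of the whole range for Igf2bp3, with the lowest array at 7.80 and the median at 9.19. This lies above the limit of Dixon's test for 7 arrays, which chance alone passes in about 1 in 20 groups for each gene. The limit was not adjusted for the number of genes looked at. Igf2bp3 was not the only gene with 1 array apart, since Dusp6 read 6.85 in heterozygous leukaemia 7 and 9.40 to 11.04 in the others.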

How the results depend on the processing

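The number of genes called, 9120, fell to 2700 with the 5 arrays alone, 3143 with array weights, 2922 with a spread for each group (added after seeing the data), 5276 of 10985 when dim genes were left out and 2122 at a log2 change of at least 1. It ranged from 6808 to 8710 when each array was left out and was 7308 with a replicate block. The 138 differences from heterozygotes became 9 with only the 15 arrays compared, 38 with array weights, 18 with a spread for each group, 90 at a log2 change of at least 1 and 772 with a replicate block, and ranged from 52 to 1381 when each array was left out; for none of these was the cause tested beyond the fewer or differently weighted arrays themselves. The replicate block, under which precursor 3 has no same-numbered leukaemia, ended the calls of Camk2d, Mcm6 (adjusted p = 0.074) and Ccnb2 (adjusted p = 0.18) and, for the difference from heterozygotes, that of Cd37 (adjusted p = 0.053), and it left 6 of 17 mitosis and 4 of 8 G1 calls. Of 147 named genes called, 83 kept their call under every alternative and 0 changed sign. With the 5 arrays alone Bcl2, Bid, Ccnd2, Gata1, Hoxa5, Ifih1, Ikzf1, Igll1, Il7r, Myc, Pfkfb3 and Stk11 lost theirs beside those the report gives. Array weights ended the calls of Bank1, Bcl2, Camk2d, Ccnd2, Cdc20, Gata1, Ikzf1, Irf7, Kif20a, Ly6a2, Myc, Pfkfb3 and Prkdc. Of 656 comparisons of a list's count 560 stayed within 1.5 times, and the median changed sign somewhere for 8 of 41 lists.

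Signs turned only for genes that did not pass the test. Over the arrays left out, the lowest and highest changes were -2.74 and 0.26 for Bcl2l1, -0.12 and 0.13 for Bcl6, -0.065 and 0.30 for Ccnd3, -0.24 and 0.0021 for Cdkn2a, -5.32 and 1.22 for Dntt, -1.75 and 0.052 for Dusp6 and -1.49 and 4.23 for Flt3. They were -0.22 and 0.54 for Nr3c1, -0.010 and 0.12 for Serpinb9d, -0.30 and 0.92 for Slc2a1, -0.27 and 1.10 for Socs2 and -1.80 and 0.52 for Tcf4, in each case without leukaemia 1 or without leukaemia 2. Bcl6 also gave -0.33 after quantile normalization, -0.055 after median centring, -0.15 after cyclic loess, -0.0029 with the replicate block, -0.28 with sex, -0.068 without precursor 2 and -0.0029 without precursor 3. Nr3c1 gave -0.12 after quantile normalization, Plch1 0.021 after cyclic loess and 0.024 with sex, and Serpinb9d -0.0078 after median centring and -0.31 with sex.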

Other observations

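Antigen receptor segments were kept out of the named genes and are given here as values. Of 20 heavy chain, kappa and T cell receptor genes measured, 1 was called higher in leukaemia and 2 lower, below the shares of all genes (18.1% and 27.6%). All 8 kappa variable segments read higher in leukaemia 1 than in leukaemia 2, 7 of them above every precursor in leukaemia 1 and 6 below every precursor in leukaemia 2. None of the 8 passed the limma test between leukaemia and precursors (adjusted p from 0.0996 to 0.915). The share of all genes placed in this way by a single leukaemia was not counted. Igkv19-93 read 13.23 in leukaemia 1, 9.53 in leukaemia 2 and 10.84, 11.33 and 11.52 in the precursors. Igkv4-91 read 10.24 and 6.82 against 6.94, 6.42 and 7.00. Ighm, the mu heavy chain constant region, read 10.71 and 9.80 against 10.57, 11.20 and 11.36. Trgv1, a T cell receptor gamma segment, read 7.09 and 10.68 against 5.99, 6.40 and 5.57 and was the one called higher. Near-identical segments share probes, so each value may hold signal from its relatives.

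Some genes were high in leukaemia 2 alone among the 5 arrays. Trat1, a T cell receptor adaptor, read 4.88 in leukaemia 1, 9.99 in leukaemia 2 and 4.77, 4.72 and 4.71 in the precursors, and Bpifc read 5.50 and 10.59 against 5.65, 5.77 and 5.62. NK cell genes were highest in precursor 2 among the precursors, with list medians of -0.17, 0.65 and -0.44 around the precursor mean, and Gzma, granzyme A, read 6.40, 7.79 and 6.40 there.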
